A study of Mus musculus with 6 samples.

Results

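A set of 10 genes that marks the walls of blood vessels was followed in the heart and brain of mice with ischemic chronic heart failure (CHF). They were taken by name as 10 of the 35485 features listed for each RNA sequencing library, and all 10 were found. Acta2, Tagln, Cnn1, Myh11, Myl9 and Smtn belong to the contractile apparatus of vascular smooth muscle, and Rgs5, Abcc9, Notch3 and Pdgfrb are used as markers of pericytes, the mural cells of capillaries. Smooth muscle cells contract when the regulatory light chain of myosin is phosphorylated and the myosin pulls on filaments of smooth muscle actin. Pericytes lie on the endothelium of capillaries, and PDGF-B from the endothelium recruits them through the receptor PDGFR-β. Serum response factor, with its coactivators of the myocardin family, drives many of the contractile genes through a DNA element named the CArG box, and some of the same genes are made by the myofibroblasts of healing wounds.

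CHF mice were male C57BL/6 mice (C57BL/6N in the study's methods) with permanent ligation of the left anterior descending coronary artery, studied 8 weeks after the operation and classed as CHF by a large infarct. Sham mice of the same strain and sex had the chest opened without a ligature, and both groups were 6 to 9 weeks old on arrival. RNA of 3 CHF mice and of 6 sham mice was pooled for the left ventricle, the hippocampus and the prefrontal cortex, which gave 1 library per tissue and condition, 6 in all. A pool hides the spread between mice and no group has a second library, so the values below carry no p-value, and their 95% intervals cover counting error alone.

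The libraries held 15.7 to 25.9 M unique gene reads (reads mapped to 1 gene and no other place). The 10 features with most reads took 17.6% of the unique gene reads in CHF left ventricle and 28.0% in sham left ventricle, against 4.12 to 4.95% in the brain libraries. The tissues matched their labels: 12 cardiomyocyte markers summed to 3865 RPKM in CHF and 5140 RPKM in sham left ventricle and to at most 1.63 RPKM in a brain library, where Pln, a cardiac calcium pump inhibitor, had 5.30 RPKM in CHF and 12.9 RPKM in sham left ventricle but 0 unique reads. RPKM divides the reads of a gene by its kilobases and by the M reads of the library. Here the kilobases are those of the whole genomic span of a gene, introns included. A gene is named measured here where the CHF library and the sham library of that tissue each gave it 100 or more unique reads. It is named called where its RPKM in CHF divided by that in sham had a log2 of at least 0.9 or at most -0.9, the threshold of the study.

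In the left ventricle the genes did not move as a block. The contractile genes Acta2, Tagln, Myh11 and Myl9 and the pericyte receptor Pdgfrb were higher in CHF, Abcc9 was lower, and Rgs5, Notch3 and Smtn were not called. Of the 9 measured genes 5 were called higher, where 10.5% of all 9771 measured features were, and 1 was called lower, where 1.54% were. The median log2 ratio of the 9 was 0.93, against 0.22 over all measured features. In these bulk samples fewer cells of a type and less RNA per cell cannot be told apart. The names contractile and pericyte refer to the use of the genes as markers. Which cells of the left ventricle made the reads, those of Abcc9 and Smtn included, was not tested.

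Acta2, the α-actin of smooth muscle, lies at chr19:34241091-34255336 (GRCm38.p1, minus strand). It had 3289 unique reads and 10.5 RPKM in CHF left ventricle, against 886 reads and 3.69 RPKM in sham left ventricle. The CHF level was 2.85-fold that of sham, a log2 ratio of 1.51 (95% interval 1.44 to 1.66). Tagln, the actin-binding protein transgelin or SM22, had 15.6 RPKM in CHF and 4.27 RPKM in sham left ventricle (2214 and 468 reads), a log2 ratio of 1.87 (interval 1.76 to 2.05). Its 3′ side is close to Pcsk7 on the opposite strand, with 99 bases shared in the GENCODE annotation, and Pcsk7 itself had 670 unique reads in CHF and 455 in sham left ventricle. Cnn1, calponin 1, which binds actin and slows its myosin motor, had 140 unique reads in CHF and 21 in sham left ventricle, too few in sham to count as measured. Its level was 0.634 RPKM in CHF and 0.122 RPKM in sham, a log2 ratio of 2.38 with a wide interval (1.73 to 3.13), the highest value of the 10 genes.

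The motor itself moved in the same direction. Myl9, the regulatory light chain whose phosphorylation starts contraction, had 8.57 RPKM in CHF and 3.16 RPKM in sham left ventricle (1175 and 338 reads), a log2 ratio of 1.44 (interval 1.28 to 1.64). Myh11, the smooth muscle myosin heavy chain, had 0.925 RPKM in CHF and 0.485 RPKM in sham left ventricle (1975 and 807 reads). Its log2 ratio of 0.93 (interval 0.83 to 1.07) lies just past the threshold, and the interval reaches below it. Smtn went the other way. Smtn, smoothelin, a cytoskeletal protein named for contractile smooth muscle, had 14.6 RPKM in CHF and 24.9 RPKM in sham left ventricle (7045 and 9332 reads), a log2 ratio of -0.77 (interval -0.79 to -0.70) that was not called. Smtn alone made up the larger part of the summed level of the 6 contractile genes in sham. The sum was 50.9 RPKM in CHF and 36.6 RPKM in sham, and 36.2 RPKM in CHF and 11.7 RPKM in sham without Smtn.

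The 4 genes used as pericyte markers spread in both directions. Their summed RPKM was nearly equal, 16.3 RPKM in CHF and 16.2 RPKM in sham, but that holds for this scale only. RPKM here divides by spans from 38026 bases (Rgs5) to 114413 bases (Abcc9), so the sum gives Abcc9 little weight. Per kilobase of the longest transcript Abcc9 had 28.6 reads per M reads in CHF and 59.7 in sham, and Pdgfrb 42.7 in CHF and 20.6 in sham. Pdgfrb, the PDGF receptor β, had 5.80 RPKM in CHF and 2.80 RPKM in sham left ventricle (5124 and 1921 reads), a log2 ratio of 1.05 (interval 1.00 to 1.15). Abcc9, at chr6:142587862-142702274 on the minus strand, encodes the sulfonylurea receptor SUR2, the regulatory subunit of the ATP-sensitive potassium channels of heart and vessels. It had 1.88 RPKM in CHF and 3.91 RPKM in sham left ventricle (4614 and 7514 reads), 2.08-fold lower in CHF with a log2 ratio of -1.06 (interval -1.10 to -0.99). Among all measured features 0.962% had a lower ratio. Rgs5, a regulator that shortens G protein signals and is the classical pericyte marker, had 5.51 RPKM in CHF and 6.96 RPKM in sham left ventricle (4638 and 4566 reads, log2 ratio -0.34, interval -0.38 to -0.26). Notch3, the Notch receptor of mural cells, had 3.09 RPKM in CHF and 2.57 RPKM in sham left ventricle (3134 and 2033 reads, log2 ratio 0.26, interval 0.20 to 0.36). Acta2 stood at 1.91 times the RPKM of Rgs5 in CHF left ventricle and at 0.530 times in sham left ventricle.

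**Figure D1:**
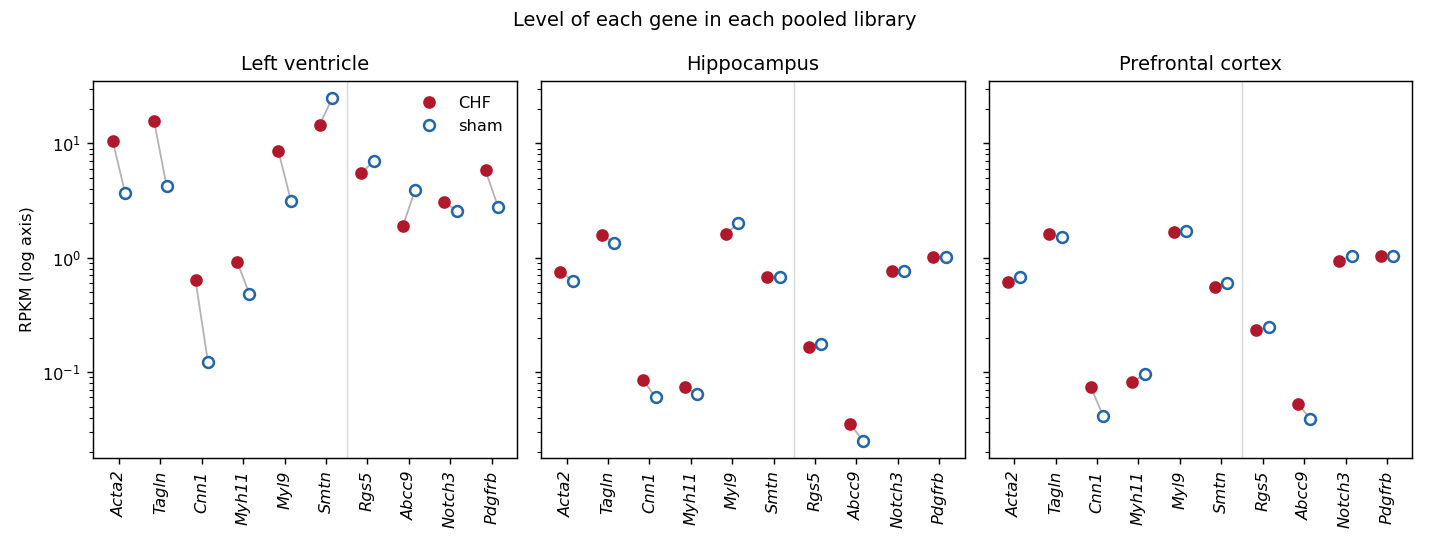
RPKM of the 10 genes (log axis) in the CHF library (filled red) and the sham library (open blue) of each tissue, with a grey line joining the pair and a vertical line between contractile genes on the left and pericyte genes on the right. In left ventricle Acta2 stood at 10.5 RPKM in CHF and 3.69 RPKM in sham, and Abcc9 at 1.88 RPKM in CHF and 3.91 RPKM in sham, while the paired points of the brain regions nearly coincide for most genes.

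The order of levels among the 10 genes also shifted. On the RPKM scale Tagln (15.6 RPKM) and Smtn (14.6 RPKM) were the highest of them in CHF left ventricle, and Smtn (24.9 RPKM) and Rgs5 (6.96 RPKM) in sham left ventricle. Cnn1 was the lowest in both. Since RPKM here divides by the genomic span, the order was also taken per kilobase of the longest annotated transcript. On that scale Smtn (94.0 reads per kilobase per M reads) and Acta2 (73.7) led in CHF left ventricle, and Smtn (160) and Rgs5 (64.6) led in sham left ventricle, with Abcc9 (59.7) next to Rgs5.

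Scaling of the libraries bears on the calls near the threshold. With TMM factors the median ratio over all measured features of the left ventricle shifted by -0.21. The calls were then 3 higher (Acta2, Tagln and Myl9) and 2 lower (Abcc9 and Smtn), against 5 higher and 1 lower as deposited. Myh11 had a log2 ratio of 0.72 and Pdgfrb of 0.85 under TMM, while Smtn had -0.97. Relative to the all-feature median of the deposited RPKM, the ratio was 0.71 for Myh11, 0.83 for Pdgfrb, -0.99 for Smtn and 0.04 for Notch3.

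**Figure D2:**
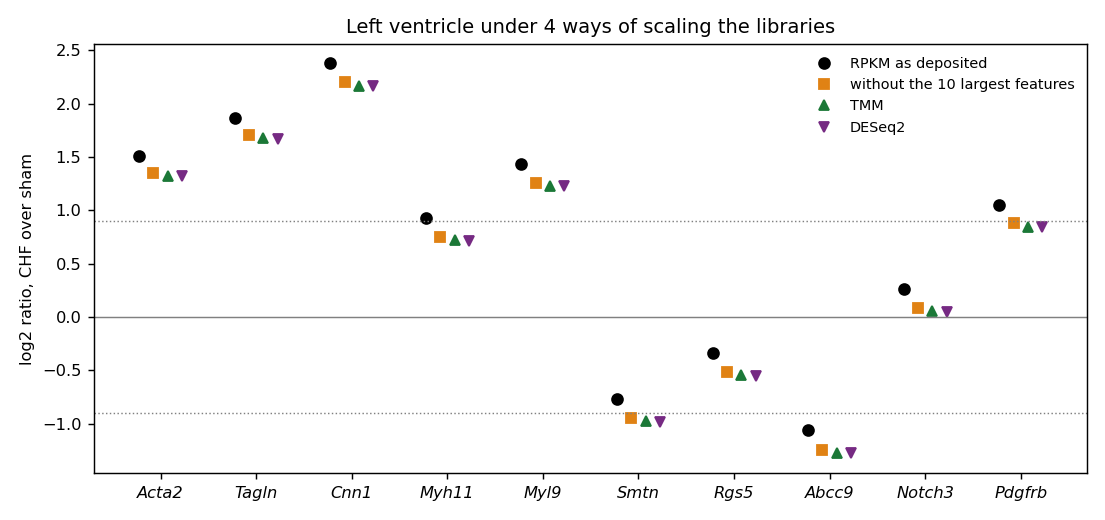
Log2 ratio of the left ventricle, CHF over sham, for each gene under 4 scalings: RPKM as deposited (circle), read totals without the 10 largest features (square), TMM (triangle up) and DESeq2 size factors (triangle down), with dotted lines at 0.9 and -0.9. Acta2, Tagln, Cnn1 and Myl9 stay above the upper line and Abcc9 below the lower line in all 4, whereas Myh11, Pdgfrb and Smtn cross a line.

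Promoter sequences are shown for Acta2 and Myl9, which were called higher and have matches to the element named above. RefSeq (GRCm38.p6) gave 300 bases, 250 before and 50 after the start, for 7 of the 10 genes, and the promoters of Tagln, Myh11 and Pdgfrb were not analysed here. The CArG box, a pair of C, a run of A or T and a pair of G, was searched by its name pattern, which reads alike on both strands. An exact match was in 1 of the 7 (Myl9), and a match with up to 1 mismatch in 2 (Myl9 and Acta2). Over all 32851 promoters of this length 1.63% held an exact match and 21.1% a match with up to 1 mismatch. For 7 promoters, 2 is near the share of 21.1%, and the exact match rests on 1 gene. Capitals mark the matches. In Myl9 they begin 161 bases (exact) and 99 bases (1 mismatch) before the start, and in Acta2 84 and 34 bases before it (1 mismatch each). Abcc9, the gene that was lower, is shown beside them and has none, as have Rgs5, Cnn1, Smtn and Notch3. A link between the element and the direction of a ratio was not tested.
Acta2, chr19:34255324-34255623, minus strand: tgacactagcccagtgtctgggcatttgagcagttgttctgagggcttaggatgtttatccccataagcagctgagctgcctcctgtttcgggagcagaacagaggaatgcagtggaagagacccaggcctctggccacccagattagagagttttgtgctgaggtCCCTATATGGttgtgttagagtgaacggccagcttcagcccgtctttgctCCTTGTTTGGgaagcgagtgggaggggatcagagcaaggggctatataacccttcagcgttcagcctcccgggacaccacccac
Myl9, chr2:156775214-156775513, plus strand: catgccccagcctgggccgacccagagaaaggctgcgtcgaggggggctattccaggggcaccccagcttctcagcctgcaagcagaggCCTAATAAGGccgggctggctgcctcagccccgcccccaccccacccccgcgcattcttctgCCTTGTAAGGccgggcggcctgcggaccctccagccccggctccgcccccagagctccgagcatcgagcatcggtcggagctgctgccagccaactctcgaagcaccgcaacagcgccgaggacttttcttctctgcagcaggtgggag
Abcc9, chr6:142702225-142702524, minus strand: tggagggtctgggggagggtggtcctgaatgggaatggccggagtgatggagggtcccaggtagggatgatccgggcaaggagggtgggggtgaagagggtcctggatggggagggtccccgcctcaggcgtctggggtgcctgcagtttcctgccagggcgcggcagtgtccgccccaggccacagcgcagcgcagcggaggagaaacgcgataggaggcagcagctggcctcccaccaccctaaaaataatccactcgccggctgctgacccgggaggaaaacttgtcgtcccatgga
A match describes letters in this window and does not show binding. The window of Cnn1, the gene with the highest ratio, had no match.

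Regulators of that element were called at about the rate of all features in the left ventricle. Of 7 measured genes for serum response factor and its partners, 1 was called higher, where 10.5% of all measured features were, and none lower, with a median log2 ratio of 0.02. Srf itself had 15.4 RPKM in CHF and 14.1 RPKM in sham left ventricle (log2 ratio 0.13). Myocd, the myocardin gene, had 0.616 RPKM in CHF and 0.816 RPKM in sham (log2 ratio -0.41). Mkl1, a related coactivator that responds to actin assembly, was the called one at 1.05 (672 reads in CHF and 254 in sham), and with TMM factors its ratio was 0.84 and none of the 7 was called.

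Other contractile genes of smooth muscle were called higher or not at all. Of 20 listed, 16 were measured in left ventricle, with a median of 0.56. Of these, 7 were called higher, where 10.5% of all measured features were, and none lower, where 1.54% were. The 7 were Actn1 (log2 ratio 1.92), which crosslinks actin, the tropomyosin Tpm2 (1.45), Aoc3 (1.36), Lmod1 (1.32), which nucleates actin filaments, Csrp1 (1.29), the crosslinker Flna (1.25) and Cald1 (1.22), the caldesmon gene. The most abundant of the list, Des (370 RPKM in CHF and 273 RPKM in sham) and Tpm1 (197 RPKM in CHF and 243 RPKM in sham), which cardiomyocytes also make, were not called. None of 10 measured genes of the myosin light chain kinase and phosphatase system was called, where 12% of all measured features were in either direction. The highest were Rhoa at 0.70, Cdc42bpa at 0.68 and the kinase gene Mylk at 0.67.

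The paralogs behaved unevenly. Acta1, the skeletal muscle α-actin, had 250 RPKM in CHF and 63.8 RPKM in sham left ventricle (log2 ratio 1.97), and Actc1, the cardiac α-actin, had 1317 RPKM in CHF and 1310 RPKM in sham (log2 ratio 0.01). Acta2 shares much of its coding sequence with these far more abundant genes, and reads that fit more than 1 gene could be split among them. At least 97.8% of the reads given to Acta2 in left ventricle were unique. Tagln2 had a log2 ratio of 1.21, Cnn2 1.14 and Cnn3 1.34, and the nonmuscle myosin heavy chain Myh10 1.41. Of the close relatives of Myl9, Myl12b had 1.27 and Myl12a 0.71, with 66.8 to 77.8% unique reads.

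Other pericyte genes were called higher or not at all. Of 18 listed, 15 were measured in left ventricle, 5 were called higher, where 10.5% of all measured features were, and none lower, where 1.54% were, with a median of 0.64. The 5 were the aminopeptidase Anpep (log2 ratio 1.88), the surface protein Cd248 (1.86), the guanylate cyclase subunits Gucy1a3 (1.72) and Gucy1b3 (1.38), which sense nitric oxide, and the endothelin receptor Ednrb (1.20). Cd248 had 42.1 RPKM in CHF and 11.6 RPKM in sham left ventricle. Other genes of the list went the other way without a call. Vtn (log2 ratio -0.33), Art3 (-0.30) and Ednra (-0.26) were lower in CHF, with intervals below 0. Kcnj8, which encodes a channel pore that pairs with SUR2, had 7.09 RPKM in CHF and 8.47 RPKM in sham left ventricle (log2 ratio -0.26). Abcc9 stood at 0.265 times the RPKM of Kcnj8 in CHF and 0.462 times in sham. RPKM here divides by the genomic span, 114413 bases for Abcc9, so these values do not give the proportion of the transcripts. Kcnj11, the pore subunit of cardiomyocytes, had 48.1 RPKM in CHF and 61.7 RPKM in sham (log2 ratio -0.36), and Abcc8, the SUR1 gene, had a log2 ratio of -0.76. None of these 3 channel genes was called as deposited, and with TMM factors Abcc8 was called lower at -0.96.

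The ligand and receptor partners were called at about the rate of all features. Of 4 measured PDGF genes 1 was called higher, where 10.5% of all measured features were, and none lower. Pdgfra, the PDGF receptor α of fibroblasts, had 3.19 RPKM in CHF and 1.14 RPKM in sham left ventricle (log2 ratio 1.48), while Pdgfb, the ligand of PDGFR-β, had 3.64 RPKM in CHF and 3.12 RPKM in sham (log2 ratio 0.22). Of 12 measured Notch genes 1, Notch2, was called higher (log2 ratio 1.29), and none lower. Heyl, a Notch target, had 0.65, Hes1 0.67 and the ligand Jag1 0.64, none of them called.

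Markers of other cells also differed between the left ventricles. Whether the tissue of CHF mice held scar is not stated in the sources used here, so scar content and a difference within myocardium cannot be told apart in any ratio of the left ventricle. All 11 measured markers of fibroblasts and myofibroblasts of 16 listed were called higher, with a median log2 ratio of 3.27 and a summed level of 438 RPKM in CHF and 35.1 RPKM in sham. Tcf21, a defining fibroblast gene, had 0.646 RPKM in CHF and 0.445 RPKM in sham left ventricle with 0 unique reads in both, and was not among the measured. Of all measured features 10.5% were called higher and 1.54% lower. Of 9 measured macrophage markers 8 were called higher, with a summed level of 110 RPKM in CHF and 30.7 RPKM in sham. Of 11 endothelial markers Vwf was called higher, near the share of all features, and the list summed to 68.6 RPKM in CHF and 61.2 RPKM in sham. Of 11 measured cardiomyocyte markers Myh6 was called lower, with a list median of -0.36. Their part in the ratios of Acta2, Tagln, Myl9, Pdgfrb, Abcc9 and Smtn was not tested.

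**Figure D3:**
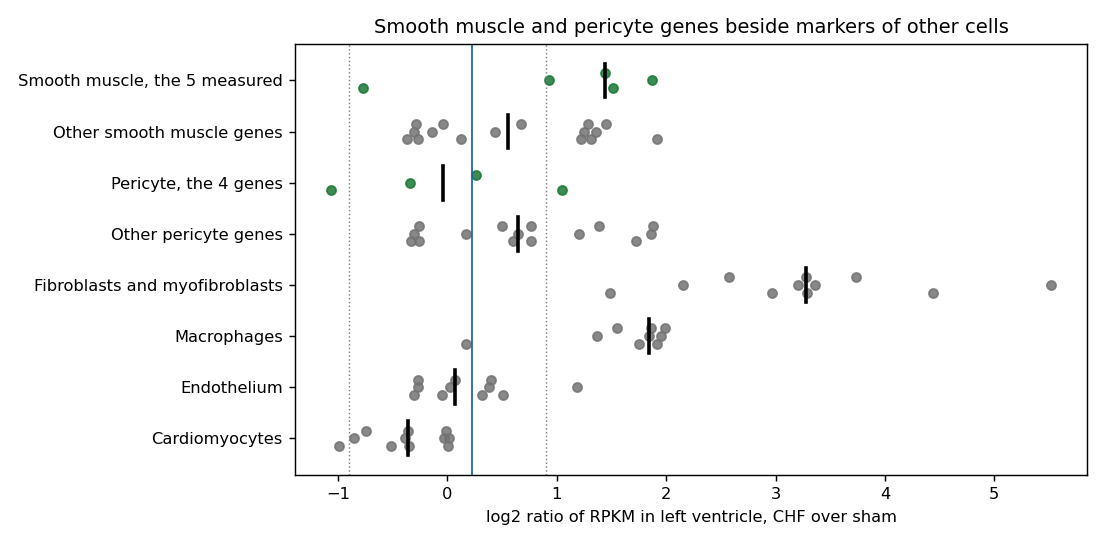
Left ventricle log2 ratio (CHF over sham) of each measured gene (points, spread vertically for legibility) for the contractile and pericyte genes of the report (green) and for other lists (grey). Black bars are list medians, the blue line is the all-feature median of 0.22 and dotted lines are the thresholds. The fibroblast list has a median of 3.27 and the endothelial list of 0.07, and the contractile genes of the report have 1.44.

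In the brain none of the 10 genes was called. In hippocampus 8 were measured and none was called, where 0.189% of all measured features were (0.0541% higher and 0.135% lower). In prefrontal cortex 9 were measured and none was called, where 0.0558% were (0.0093% higher and 0.0465% lower). Their ratios ran from -0.29 (Myl9) to 0.27 (Acta2) in hippocampus and from -0.24 (Myh11) to 0.43 (Abcc9) in prefrontal cortex.

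Most of these intervals hold 0. That of Acta2 in hippocampus (0.002 to 0.52) just missed 0, with 0.758 RPKM in CHF and 0.628 RPKM in sham (294 and 218 reads). In prefrontal cortex Acta2 had 0.619 RPKM in CHF and 0.677 RPKM in sham (174 and 229 reads). Pdgfrb had 1.02 RPKM in CHF and 1.03 RPKM in sham hippocampus and 1.04 RPKM in CHF and 1.03 RPKM in sham prefrontal cortex, so that its level moved little in the brain. Cnn1 had 24 reads in CHF and 15 in sham hippocampus and 15 reads in CHF and 10 in sham prefrontal cortex, a depth at which a difference was not detectable. The lowest log2 ratio in hippocampus was that of Myl9, with 1.63 RPKM in CHF and 1.99 RPKM in sham (284 and 309 reads, interval -0.53 to -0.06). Markers of the meninges, whose vessels carry these genes too, summed to 16.3 RPKM in CHF and 12.7 RPKM in sham hippocampus, with a median log2 ratio of 0.41 over 9 measured and none called, and their part in the brain values was not tested.

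Among the contractile genes of the brain, Tagln had 1.59 RPKM in CHF and 1.35 RPKM in sham hippocampus (log2 ratio 0.24, interval -0.03 to 0.50) and 1.62 RPKM in CHF and 1.505 RPKM in sham prefrontal cortex (0.10, interval -0.17 to 0.38). Myh11 had 0.0740 RPKM in CHF and 0.0643 RPKM in sham hippocampus and 0.0813 RPKM in CHF and 0.0961 RPKM in sham prefrontal cortex, and both intervals of its ratio held 0. Smtn, which was lower in CHF left ventricle without a call, had 0.675 RPKM in the CHF and in the sham hippocampus, and 0.555 RPKM in CHF and 0.605 RPKM in sham prefrontal cortex. Of the pericyte genes, Rgs5 had 0.166 RPKM in CHF and 0.178 RPKM in sham hippocampus and 0.233 RPKM in CHF and 0.248 RPKM in sham prefrontal cortex. Notch3 had 0.762 RPKM in CHF and 0.770 RPKM in sham hippocampus, and 0.941 RPKM in CHF and 1.03 RPKM in sham prefrontal cortex, where its ratio of -0.13 had an upper bound that just missed 0.

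Abcc9 ran in opposite directions in heart and brain. It had 0.0354 RPKM in CHF and 0.0251 RPKM in sham hippocampus (110 and 71 reads, log2 ratio 0.49, interval 0.02 to 0.91), where it was not measured, and 0.0528 RPKM in CHF and 0.0391 RPKM in sham prefrontal cortex (119 and 101 reads, log2 ratio 0.43, interval 0.12 to 0.91). The ratio of left ventricle minus that of hippocampus was -1.55 (95% counting interval -1.99 to -1.12), and minus that of prefrontal cortex -1.49 (interval -1.88 to -1.11). For Tagln the same difference was 1.63 against hippocampus (interval 1.34 to 1.92) and 1.76 against prefrontal cortex (interval 1.46 to 2.07). For Rgs5 it was -0.24 (interval -0.55 to 0.07) and -0.25 (interval -0.54 to 0.04), and both intervals hold 0. These intervals rest on reads, not mice, and no test of the difference was possible.

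**Figure D4:**
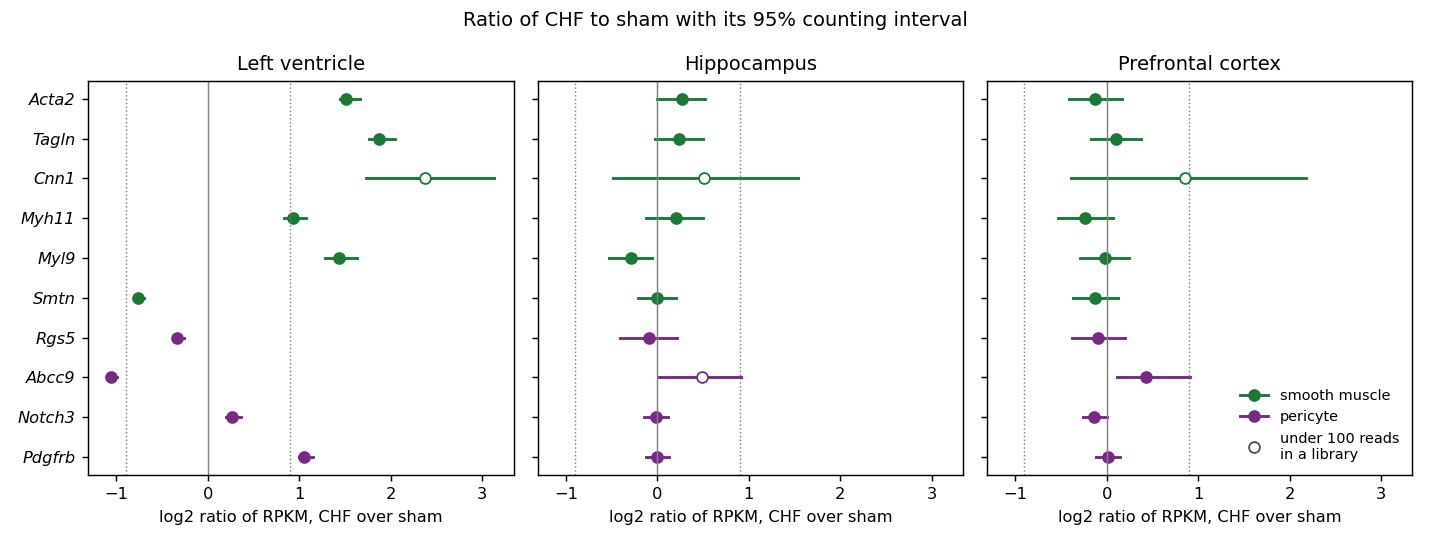
CHF over sham log2 ratio for each gene in the 3 tissues, with its 95% counting interval from unique gene reads (bar), contractile genes in green and pericyte genes in purple. Open points are genes with under 100 reads in a library of the tissue, and dotted lines are at 0.9 and -0.9. Left ventricle ratios run from -1.06 for Abcc9 to 2.38 for Cnn1, whereas no measured gene passes a dotted line in either brain region.

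The 10 genes were more abundant in heart than in brain. Together the 10 genes took 1678 of each M unique reads in CHF and 1777 in sham left ventricle, and 149 to 167 in the brain libraries. In this comparison a feature counted where any library of the condition gave it 100 or more unique reads. In CHF mice all 10 were higher in left ventricle than in both brain regions past 0.9, where 30.7% of 12763 features were. Cnn1 entered the CHF count only through left ventricle, where it is high (140 reads, against 24 in hippocampus and 15 in prefrontal cortex). In sham mice 8 of the 10 were, where 24.9% of 12112 features were. The exceptions in sham were Cnn1 and Myl9. Cnn1 had under 100 reads in every sham library and was left out for that alone. Its sham log2 ratios over hippocampus (1.02) and prefrontal cortex (1.57) passed 0.9, so the CHF and sham counts differ partly through the read rule. Myl9 had 3.16 RPKM in left ventricle, 1.99 RPKM in hippocampus and 1.70 RPKM in prefrontal cortex.

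Abcc9, Rgs5 and Smtn had the largest heart excess. Abcc9 was 42.6-fold higher in left ventricle than the mean of the brain regions in CHF mice and 122-fold in sham mice. Rgs5 was 27.6-fold higher in CHF and 32.7-fold in sham, and Smtn 23.8-fold in CHF and 38.8-fold in sham. Acta2 and Tagln had a smaller excess that was wider in CHF mice: Acta2 15.3-fold in CHF and 5.65-fold in sham, Tagln 9.71-fold in CHF and 2.99-fold in sham. Notch3 had the smallest excess in CHF mice, 3.63-fold, and 2.86-fold in sham.

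Within the brain the regions were compared in the same way. None of the 10 genes passed 0.9 between hippocampus and prefrontal cortex, where 8.29% of features did in CHF and 7.7% in sham mice. For a set of 10 genes, none is near that share. Cnn1, with 10 to 24 reads in the brain libraries, was too shallow to judge (sham interval -0.70 to 1.87). Rgs5, Abcc9 and Notch3 were lower in hippocampus in both conditions with intervals off 0, by log2 ratios of -0.49, -0.58 and -0.30 in CHF mice and -0.48, -0.64 and -0.42 in sham mice. The intervals of Tagln, Cnn1, Myl9 and Pdgfrb held 0 in both conditions, so the order of the brain regions is not resolved for these genes. The pericyte genes of the brain stood in another order than in the heart. Pdgfrb was 6.15 times Rgs5 in CHF and 5.77 times in sham hippocampus, and 1.05 times in CHF and 0.402 times in sham left ventricle.

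The genes with the most similar profiles were found among 8363 genes with at least 100 reads in all 6 libraries, by the root mean square difference of log2 RPKM centred on each gene's mean. The 3 nearest genes are given for each. Those of Acta2 were Itpripl2 (0.14), Dab2 (0.14) and Tagln2 (0.16), and of Tagln Arpc1b (0.13), Ltbp4 (0.15) and Scarf2 (0.15). Myh11 had Pdlim1 (0.10), Itpripl2 (0.13) and Pgcp (0.15), and Myl9 had Ddah2 (0.07), Wipf1 (0.09) and Pdgfra (0.13). Pdgfrb had Fes (0.08), Lima1 (0.08) and Akap2 (0.08), and Notch3 had Alpl (0.05), Bms1 (0.07) and Tmod3 (0.08). Cnn1, not measured in all 6, had Islr (0.29), Thsd7a (0.30) and Ssc5d (0.31). For Smtn they were Idh2 (0.11), Decr1 (0.11) and Etfdh (0.16), 3 genes of mitochondrial metabolism. For Abcc9, not measured in all 6, they were Acadm (0.35), of fatty acid oxidation, Eno3 (0.35) and Pdk4 (0.39). For Rgs5 they were Ivns1abp (0.12), Fabp3 (0.14), a fatty acid carrier of heart muscle, and Psme4 (0.15). None of the 3 nearest genes of any of the 10 was another of them, and Cnn1 and Abcc9, outside the 8363, could not be. Further down, the ranks of the other members ran from 6 (Tagln for Cnn1) to 7541 (Smtn for Myl9). Myh11 ranked 16 for Acta2 and Smtn 21 for Rgs5, so some pairs were close and others far apart. These distances describe 6 libraries from 2 groups of mice and carry no p-value.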

How the data were processed

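Per the labels and the study's methods, RNA of pooled mice was made into stranded libraries after ribosomal RNA removal and sequenced on a HiSeq2000, and read mapping to GRCm38.p1 was done by the authors in CLC Genomics Workbench (version not given in the sources used here). Whether counting used strand is not stated, so reads of Tagln, Abcc9, Notch3 and Smtn and of overlapping opposite-strand genes may not be told apart. The deposited counts are whole unique and total gene reads for 35485 features. The deposited RPKM values divide by a listed length that was the genomic span in 99.7% of 21888 features with a length, all 10 genes included. Pairwise tables of the authors repeat these RPKM values beside their own log2 ratios, which were not used.

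The 10 genes, the lists and the rule for named genes (all 10 genes, related genes, and of each list the 4 with the largest ratios and the 2 with the highest RPKM in left ventricle) were chosen with earlier results of these data known. Further list genes past the threshold were named after their values were seen. With 1 library per group no test was run. For each ratio a 95% Clopper-Pearson interval (exact) was set on the CHF share of unique reads and rescaled by library size, so it is not centred on the RPKM ratio. Intervals of differences between tissues use a normal approximation. The ratio code was tested on simulated data. A floor of 3 counts was 0.116 to 0.191 reads per M reads. Alternatives were TMM factors (edgeR 4.0.16), DESeq2 1.42.0 size factors, CPM, totals without the 10 largest features, total gene reads, a pseudocount of 0.01 RPKM, and other read minimums and thresholds. Scripts ran in R 4.3.3 and in Python 3.11.15 (pandas 2.3.3, numpy 2.4.6, matplotlib 3.10.9, scipy 1.17.1).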

Additional observations from a re-analysis of the deposited data

Results flagged for a closer look

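Abcc9 ran in opposite directions in heart and brain with counting intervals on opposite sides of 0. Its log2 ratio, CHF over sham, was -1.06 in left ventricle and 0.49 in hippocampus, a difference of -1.55, and 0.43 in prefrontal cortex, a difference of -1.49. Myl9 had 1.44 in left ventricle and -0.29 in hippocampus, a difference of 1.73. Notch3 had 0.26 in left ventricle and -0.13 in prefrontal cortex, a difference of 0.40, and under TMM its left ventricle ratio was 0.06. None of these differences between tissues was tested, since each side is 1 library against 1 library, and Abcc9 had between 71 and 119 reads in a brain library.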

How the results depend on the processing

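Under TMM factors, DESeq2 size factors and totals without the 10 largest features, 3 genes were called higher in left ventricle in place of 5, and 2 were called lower in place of 1. Of 180 ratios of the 10 genes over 3 tissues and 6 alternative scalings, read types and pseudocounts, 153 stayed inside the counting interval, 27 lay outside it and 0 of the called ones changed sign. The 27 were the left ventricle ratios of every gene but Cnn1 under those 3 scalings. CPM of unique reads could not leave the interval, which is built on the same reads and totals. Total gene reads gave the deposited ratios in left ventricle. The count of 153 is therefore no measure of stability. Read minimums from 1 to 200, 100 reads in either library and thresholds of 0.8 and 1.0 gave 4 to 6 genes called higher and 1 lower in left ventricle, and no scaling gave a call in the brain. Under the same 3 scalings the calls became 3 lower in place of 1 for cardiomyocyte markers, 0 higher in place of 1 for serum response factor and its partners (Mkl1), and 1 lower in place of 0 for the potassium channel subunits (Abcc8). The counts of genes higher in left ventricle than in both brain regions, 10 in CHF mice and 8 in sham mice, were the same under CPM, TMM and DESeq2 over all 6 libraries. Leaving out a replicate was not possible, and no paired analysis was possible because each group has 1 library. Depth limited Cnn1 in every tissue and Abcc9 in the brain.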
